A study of Mus musculus with 12 samples.

Results

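Pericytes and vascular smooth muscle cells are the mural cells that wrap capillaries and arterioles, and 9 of their marker transcripts were followed in RNA from cardiomyocytes isolated from dystrophic mouse hearts. The genes were Rgs5, Pdgfrb, Cspg4, Notch3, Kcnj8 and Abcc9, used as pericyte markers, and Acta2, Tagln and Myh11, which encode contractile proteins of smooth muscle. They were taken by symbol from a table of 18530 genes, which lists all 9. All 9 also passed the filter of at least 1 TPM in at least 3 libraries, as did 12798 genes in all. TPM values scale reads by gene length and by library total, so that levels of different genes can be set side by side.

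The study compared 4 groups of 3 libraries each. They were mdx mice given saline, mdx mice given PB1046 at the high dose, mdx:Utrn+/- mice given saline and mdx:Utrn+/- mice given PB1046 at the high dose. The mdx allele removes dystrophin, the protein that ties the muscle membrane to the cytoskeleton, and all 4 groups carry it. A wild-type group was not analysed here. Mice labelled mdx:Utrn+/- also carry a single working copy of Utrn, which encodes the dystrophin homolog utrophin. PB1046 is a long-acting form of the vasodilator peptide VIP. Injections were given every other day between weeks 4 and 12 of age, and hearts were taken at week 14, after dosing had ended. Of the 0.75 and 1.5 mg/kg in the treatment protocol, the larger is taken here as the high dose. The labels do not say that each library came from its own mouse, so p-values measure the spread between these libraries. The batch field of the labels repeats the group, so that a batch by that field and the group cannot be told apart.

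Mural cells are recruited to vessels by platelet-derived growth factor B from the endothelium, which signals through Pdgfrb on their surface. Notch3 receives ligands from endothelial cells and maintains the mural state. The contractile genes are driven by serum response factor, which binds the CArG box together with its coactivator myocardin. Relaxation and contraction of these cells depend in part on ATP-sensitive potassium channels built from Kcnj8, the pore, and Abcc9, the sulfonylurea receptor subunit. Abcc9 is also the subunit of the ventricular cardiomyocyte channel, where its usual partner is Kcnj11.

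The libraries were dominated by cardiomyocyte transcripts. The summed level of 12 cardiomyocyte markers was 96818 to 133706 TPM per library, and that of the 9 mural markers was 133 to 447 TPM. None of the 9 was at 0 in any library. Recovered reads per library, apart from the ribosomal RNA gene Rn45s, ranged from 6248202 to 25366480. They were fewer in each library of mdx with PB1046 (10555162 to 13641583) than in each of mdx with saline (17665290 to 25366480). Rn45s itself ranged from 1039 to 42106 TPM. Utrn ranged from 6.11 to 18.3 TPM in the 6 mdx libraries and from 3.32 to 9.92 TPM in the 6 mdx:Utrn+/- libraries, so that these ranges overlapped.

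By mean level over the 12 libraries Acta2 was the highest of the markers at 87.5 ± 33.9 TPM (SD, n = 12), followed by Rgs5 at 53.3 ± 39.4 and Tagln at 39.5 ± 20.2 TPM. Abcc9 averaged 30.8 ± 8.45 TPM. Pdgfrb and Kcnj8 lay close together at 13.7 ± 5.89 and 12.7 ± 7.04 TPM. Myh11 averaged 6.21 ± 4.11 and Cspg4 5.46 ± 1.88 TPM, and Notch3 was the lowest at 3.54 ± 1.62 TPM. The ranges over libraries of all neighbours in this order overlapped. Within single libraries Acta2 or Rgs5 was the highest of the 9 in all 12, and Notch3 or Myh11 the lowest in all 12. Every value rested on at least 64 recovered reads (the lowest, for Kcnj8) and on as many as 5804 (Acta2).

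**Figure D1:**
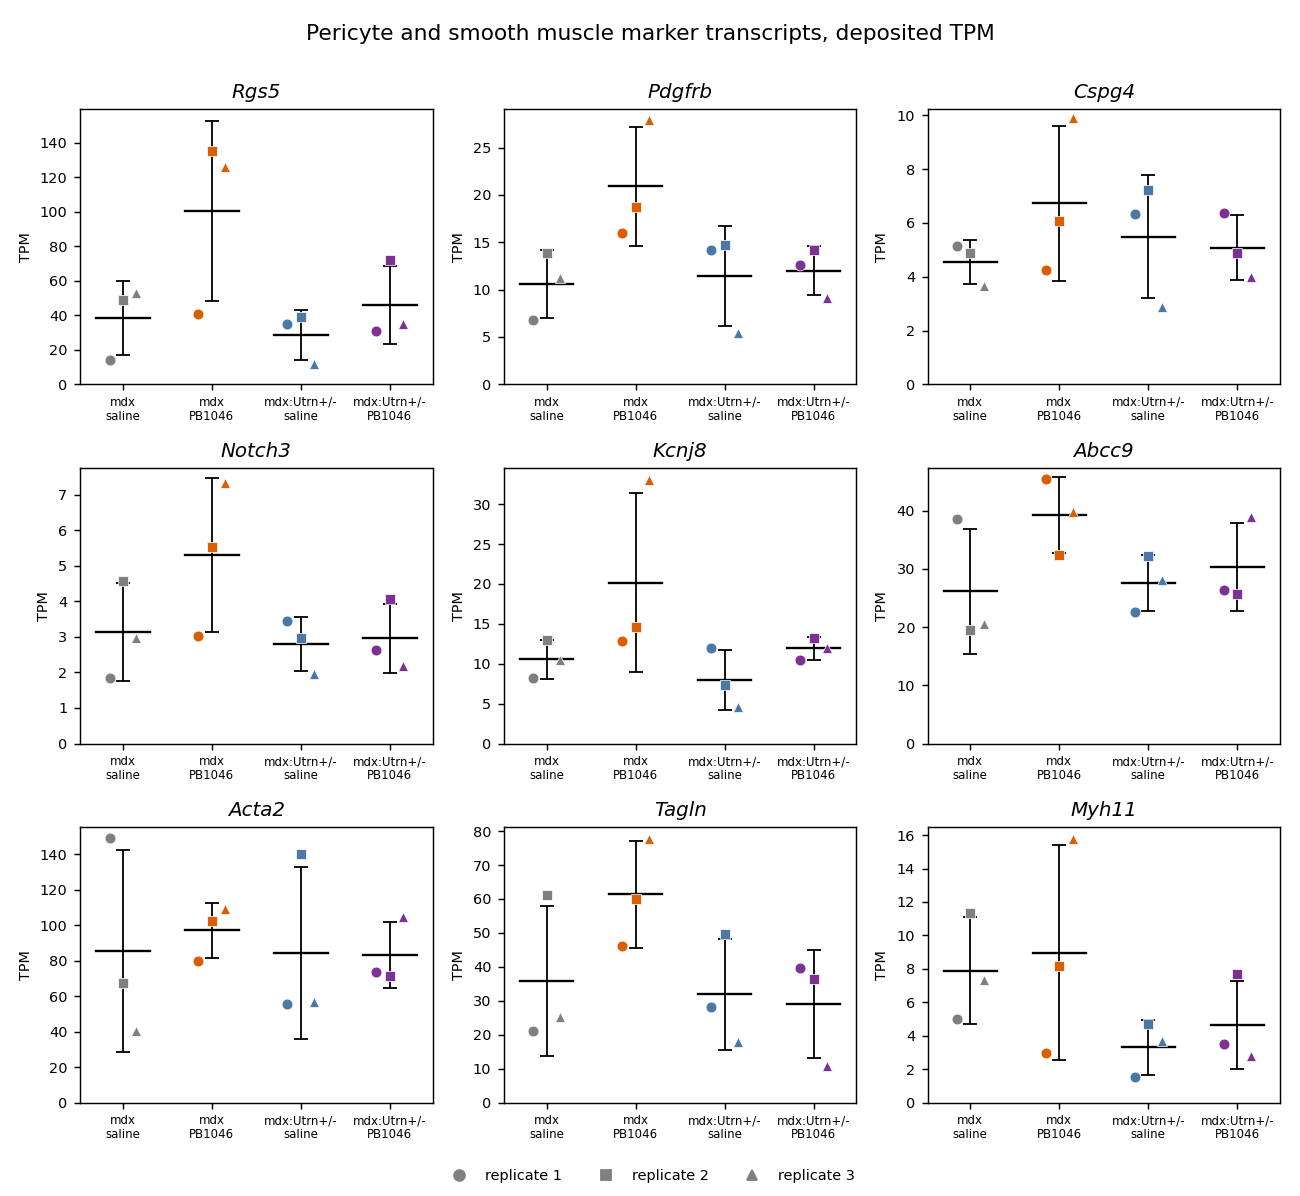
Deposited TPM of the 9 marker genes in the 12 libraries, 1 panel per gene with its own linear axis from 0. Points are libraries with the replicate number as the shape, horizontal bars are group means and vertical bars are 1 SD (n = 3). The Pdgfrb points of mdx with PB1046 (16.0 to 28.0 TPM) lie above all 3 of mdx with saline (6.75 to 13.9 TPM), and for the other 8 genes these 2 groups overlap.

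Rgs5, a regulator that shortens signalling by G protein-coupled receptors, lies on the plus strand at chr1:169655501-169693526 (mm10, as are all positions of genes here). It read 14.0, 48.7 and 52.6 TPM in mdx with saline and 40.6, 135 and 126 TPM in mdx with PB1046. Libraries of mdx:Utrn+/- read 34.7, 39.0 and 11.9 TPM with saline and 30.8, 72.1 and 34.9 TPM with PB1046. The highest 2 of the 12 libraries were replicates 2 and 3 of mdx with PB1046, while replicate 1 of that group lay within the range of mdx with saline. Group means were 38.4 ± 21.2, 100.4 ± 52.0, 28.5 ± 14.5 and 45.9 ± 22.8 TPM in the same order (SD, n = 3). On the scale log2(scaled TPM + 1), used for all differences below, Rgs5 was 1.22 higher with PB1046 in mdx (95% interval 0.03 to 2.42, limma adjusted p = 0.999 over all genes).

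That difference rested in part on 1 control library: without mdx saline replicate 1 it was 0.59, and without mdx PB1046 replicate 1 it was 1.62. With log2 Rn45s as a term in the fit it was 0.60. In mdx:Utrn+/- the PB1046 difference of Rgs5 was 0.55 (-0.65 to 1.74), and 0.012 without mdx:Utrn+/- saline replicate 3. The difference of these responses was -0.68 with an interval of -2.37 to 1.01, and was -0.0067 without mdx saline replicate 1 and -1.21 without mdx:Utrn+/- saline replicate 3. The bases upstream of the Rgs5 start are shown because this gene had the largest difference of the 9. They are credited to RefSeq on GRCm38.p6, plus strand, chr1:169655251-169655500, printed 5′ to 3′.
Rgs5: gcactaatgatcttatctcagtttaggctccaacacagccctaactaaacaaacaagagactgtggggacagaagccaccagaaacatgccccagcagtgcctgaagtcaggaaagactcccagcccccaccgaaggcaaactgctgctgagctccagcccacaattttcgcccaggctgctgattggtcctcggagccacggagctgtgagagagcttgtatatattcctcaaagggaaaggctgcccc
GTGGGAA, the core motif bound by the Notch effector Rbpj, was found on neither strand of this stretch. It occurs in 5.42% of the 32851 RefSeq windows of 250 bases before a start, and in none of the windows of the 6 markers with an entry (Rgs5, Kcnj8, Abcc9, Cspg4, Notch3 and Acta2).

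Pdgfrb, the receptor for platelet-derived growth factor B, lies on the plus strand at chr18:61045150-61085067. It read 6.75, 13.9 and 11.2 TPM in mdx with saline and 16.0, 18.7 and 28.0 TPM in mdx with PB1046. Its mdx:Utrn+/- values were 14.2, 14.7 and 5.37 TPM with saline and 12.6, 14.2 and 9.15 TPM with PB1046. All 3 libraries of mdx with PB1046 were above all 3 of mdx with saline, in deposited and in scaled TPM. Such a separation upwards was seen for 6.56% of the 12798 genes in deposited TPM and for 4% in scaled TPM, and Pdgfrb was the only 1 of the 9 markers that showed it in this comparison. Means were 10.6 ± 3.60 and 20.9 ± 6.26 TPM in mdx and 11.4 ± 5.25 and 12.0 ± 2.59 TPM in mdx:Utrn+/- (SD, n = 3). The difference with PB1046 in mdx was 0.77 (0.0033 to 1.54, limma adjusted p = 0.999). It was 0.47 without mdx saline replicate 1 and 0.33 with log2 Rn45s in the fit. In mdx:Utrn+/- the PB1046 difference of Pdgfrb was -0.01 (-0.78 to 0.75).

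Cspg4 encodes the proteoglycan NG2 on the pericyte surface and lies at chr9:56865104-56899870, plus strand. Its values were 5.15, 4.88 and 3.64 TPM in mdx with saline and 4.25, 6.08 and 9.89 TPM in mdx with PB1046. The mdx:Utrn+/- libraries had 6.35, 7.21 and 2.89 TPM with saline and 6.38, 4.87 and 4.00 TPM with PB1046. Cspg4 overlapped between groups in all 4 pairs, and its PB1046 difference was 0.28 in mdx (-0.42 to 0.97) and -0.19 on the mdx:Utrn+/- background (-0.89 to 0.51). The former was 0.031 without mdx PB1046 replicate 3. The genotype difference of Cspg4 was 0.38 among saline libraries and -0.08 among PB1046 libraries.

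Notch3, the Notch receptor of mural cells, lies on the minus strand at chr17:32120893-32166852. An annotated antisense gene, Gm17276, overlaps it. The library kit keeps strand, and whether the counting used it is not given in the sources used here. Notch3 read 1.86, 4.58 and 2.96 TPM in mdx with saline and 3.02, 5.53 and 7.34 TPM in mdx with PB1046. It read 3.44, 2.98 and 1.95 TPM in mdx:Utrn+/- with saline and 2.64, 4.06 and 2.18 TPM in that genotype with PB1046. The highest libraries were again replicates 2 and 3 of mdx with PB1046, and the groups overlapped. Its difference with PB1046 in mdx was 0.45 (-0.13 to 1.04, limma adjusted p = 0.999), and 0.18 without mdx saline replicate 1.

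Kcnj8 and Abcc9 encode partners of 1 channel and are neighbours on the minus strand of chromosome 6. Kcnj8 lies at chr6:142564939-142571356 and Abcc9 at chr6:142587862-142702274, 16505 bases apart with no annotated gene between them. The antisense gene 5330439B14Rik overlaps Abcc9. Kcnj8 read 8.15, 13.0 and 10.5 TPM in mdx with saline and 12.9, 14.6 and 33.1 TPM in mdx with PB1046. Libraries of mdx:Utrn+/- read 12.0, 7.29 and 4.62 TPM with saline and 10.5, 13.3 and 12.0 TPM with PB1046. A single library, mdx PB1046 replicate 3, stood well above the other 11 libraries. Abcc9 read 38.5, 19.5 and 20.5 TPM in mdx with saline and 45.5, 32.4 and 39.8 TPM in mdx with PB1046. Its mdx:Utrn+/- values were 22.5, 32.2 and 28.1 TPM with saline and 26.3, 25.7 and 38.9 TPM with PB1046. The control library with the highest Abcc9, mdx saline replicate 1, was the lowest of its group for Kcnj8.

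With PB1046 in mdx the difference of Kcnj8 was 0.62 (-0.10 to 1.33, limma adjusted p = 0.999), and 0.24 without mdx PB1046 replicate 3. The difference of Abcc9 was 0.46 (-0.26 to 1.18, limma adjusted p = 0.999), with 0.20 without mdx PB1046 replicate 1 and 0.73 without mdx saline replicate 1. The same differences were 0.44 (-0.28 to 1.16) and -0.06 (-0.78 to 0.66) in mdx:Utrn+/-, and that of Kcnj8 was 0.13 without mdx:Utrn+/- saline replicate 3. Over the 12 libraries the level of Abcc9 ran from 1.20 to 6.08 times that of Kcnj8. No relation between these genes across libraries was detected: Pearson's r was -0.05 and Spearman's rho 0.03 (permutation p = 0.888 and 0.937, adjusted 0.966 and 0.937 over 36 pairs, n = 12). Dropping the 2 libraries with the most extreme Kcnj8 gave -0.04. Kcnj11, the other pore subunit, averaged 63.3 ± 9.03 TPM (SD, n = 12), above Kcnj8. The bases before the starts of this pair are shown because the genes are neighbours and their levels differed in pattern. Both are from RefSeq on GRCm38.p6, minus strand, 5′ to 3′, Kcnj8 from chr6:142571615-142571864 and Abcc9 from chr6:142702316-142702524. The Abcc9 stretch ends where an exon of the GENCODE annotation begins.
Kcnj8: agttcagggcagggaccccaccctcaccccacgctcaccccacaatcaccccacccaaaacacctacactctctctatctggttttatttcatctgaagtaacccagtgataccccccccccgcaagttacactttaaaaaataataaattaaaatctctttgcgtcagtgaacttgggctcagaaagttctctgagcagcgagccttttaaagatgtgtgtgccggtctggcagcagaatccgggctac
Abcc9: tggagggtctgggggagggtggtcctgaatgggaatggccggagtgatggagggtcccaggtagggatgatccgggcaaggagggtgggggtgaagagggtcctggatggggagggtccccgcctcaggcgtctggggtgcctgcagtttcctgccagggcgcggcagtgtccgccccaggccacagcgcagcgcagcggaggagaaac
In the 250 bases before each start G and C made up 49.2% for Kcnj8 and 66.8% for Abcc9, against a median of 52.4% over all windows.

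Acta2 encodes smooth muscle actin and lies on the minus strand at chr19:34240336-34255373. It read 149, 67.3 and 40.2 TPM in mdx with saline and 79.7, 102 and 109 TPM in mdx with PB1046. The mdx:Utrn+/- values were 55.7, 140.2 and 56.8 TPM with saline and 73.6, 71.4 and 105 TPM with PB1046. The highest and the lowest of the 12 values both belonged to mdx with saline, so that the groups overlapped throughout. Group means were 85.5 ± 56.7, 97.0 ± 15.4, 84.2 ± 48.5 and 83.2 ± 18.6 TPM (SD, n = 3), and 4.37% of the variance of Acta2 lay between groups, against a median of 22.9% over the genes tested. Its difference with PB1046 in mdx was 0.21 (-0.79 to 1.21). Acta2 shares near-identical coding sequence with the sarcomeric actins Actc1 and Acta1, and how such reads were assigned is not given in the sources used here, so that its level is uncertain. Acta2 was 0.00555 to 0.0148 times the level of Actc1. In relations looked at after the values were seen, Acta2 had r = 0.69 and rho = 0.70 with Acta1 (permutation p = 0.0130 and 0.0141, adjusted 0.0471 and 0.0607 over 47 relations, n = 12) and r = 0.65 and rho = 0.65 with Actc1 (permutation p = 0.0207 and 0.0254, adjusted 0.0697 and 0.0862). Without the 2 farthest libraries r was 0.56 with Acta1 and 0.69 with Actc1, and within the 9 libraries of higher number in the column headers 0.89 and 0.74.

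Acta2 is a textbook target of serum response factor, and its window was the only 1 of the 6 with CArG-like letters. The other contractile genes, Tagln and Myh11, had no promoter entry and were not searched. The CArG box itself, searched on both strands, was in none of the 6 and in 1.47% of all windows. A CArG box with 1 G or C in its core, a search added after the first had no match, was found in 7.24% of all windows and at 2 places before the Acta2 start, which do not overlap. They lie 84 to 75 and 34 to 25 bases before the RefSeq start. Each is shown in 30 bases, capitals marking the match, from GRCm38.p6, minus strand, at chr19:34255438-34255467 and chr19:34255388-34255417, inside an Acta2 exon of the GENCODE annotation.
Acta2 match 1: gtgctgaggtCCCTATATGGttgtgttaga
Acta2 match 2: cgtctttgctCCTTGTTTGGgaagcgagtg

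Tagln encodes transgelin, an actin-binding protein of smooth muscle, at chr9:45929628-45936058 on the minus strand, where it overlaps Pcsk7 and the antisense gene Gm48529 on the other strand. It read 21.2, 61.1 and 25.1 TPM in mdx with saline and 46.2, 60.0 and 77.7 TPM in mdx with PB1046. The mdx:Utrn+/- values were 28.1, 49.8 and 17.9 TPM with saline and 39.8, 36.4 and 10.8 TPM with PB1046. Its difference with PB1046 was 0.72 (-0.39 to 1.83) in mdx and -0.39 (-1.50 to 0.72) in mdx:Utrn+/-. The difference of these responses, -1.11, was the largest of the 9 and had an interval of -2.68 to 0.45 (limma adjusted p = 0.999). It was -0.56 without mdx:Utrn+/- PB1046 replicate 3. With log2 Rn45s in the fit the difference in mdx was 0.04, without mdx saline replicate 1 it was 0.40 and without mdx saline replicate 2 it was 1.14.

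Myh11, the smooth muscle myosin heavy chain, lies at chr16:14194527-14291408 on the minus strand. It read 5.02, 11.3 and 7.36 TPM in mdx with saline and 3.00, 8.17 and 15.8 TPM in mdx with PB1046. In mdx:Utrn+/- it read 1.53, 4.73 and 3.67 TPM with saline and 3.50, 7.68 and 2.77 TPM with PB1046. All 3 libraries of mdx:Utrn+/- with saline were below all 3 of mdx with saline in deposited TPM, a separation seen downwards for 15.1% of the genes tested. After scaling the groups overlapped, while 4.09% of genes still separated downwards. Means were 7.90 ± 3.19 and 8.97 ± 6.42 TPM in mdx and 3.31 ± 1.63 and 4.65 ± 2.65 TPM in mdx:Utrn+/- (SD, n = 3). The genotype difference of Myh11 was -0.86 with saline (-1.80 to 0.08, limma adjusted p = 0.854) and -0.47 with PB1046 (-1.41 to 0.47). Without mdx:Utrn+/- saline replicate 1 the former was -0.52, and without mdx PB1046 replicate 3 the latter was -0.051. Averaged over treatments it was -0.67 (-1.33 to -0.0015, limma adjusted p = 0.858), and between -0.87 and -0.49 with any 1 library left out.

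With PB1046 in mdx, 8 of the 9 markers had a positive difference, from 0.21 (Acta2) to 1.22 (Rgs5), and Myh11 had -0.16. The median of the 9 was 0.46 against -0.0030 for all genes tested, of which 49.5% were above 0. The adjusted p of limma was under 0.05 for 0 of the 9 and for 0 of the 12798 genes (0%). Unadjusted limma p was under 0.05 for Rgs5 and Pdgfrb and for 394 genes (3.08%), and limma-voom on recovered reads also called 0, with 454 genes under an unadjusted 0.05. The count of the 9 under an unadjusted 0.05 was 0 with no filter, with log2 Rn45s in the fit and without mdx PB1046 replicate 2 or 3. It was also 0 on leaving out each mdx:Utrn+/- PB1046 library, and 1 to 3 in the other fits. Without scaling factors the median of all genes was 0.14, 72.1% were above 0 and 8 of the 9 were again positive. Leaving out any 1 library kept the median of the 9 between 0.25 and 0.66. In bulk RNA, a larger number of mural cells, more RNA per mural cell and RNA of these genes from other cells cannot be told apart.

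Markers of other cell types were compared between the same groups, and none passed the adjusted threshold. Fibroblast markers had a positive PB1046 difference in mdx for 13 of 14 genes (median 0.48), with summed levels of 379.9 to 1249.9 TPM with saline and 709.8 to 1897 TPM with PB1046. Macrophage markers were positive for 13 of 15 (median 0.39), with sums of 133 to 762 and 321 to 923 TPM. Cardiomyocyte markers were negative for 11 of 12 (median -0.32), with sums of 123604 to 128789 and 96818 to 130407 TPM. Endothelial markers were positive for 7 of 14 (median -0.0023), with sums of 1472 to 3807 and 1004 to 7418 TPM. None of these markers was at 0 in any library. Their part in the differences of the mural markers was not tested.

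**Figure D2:**
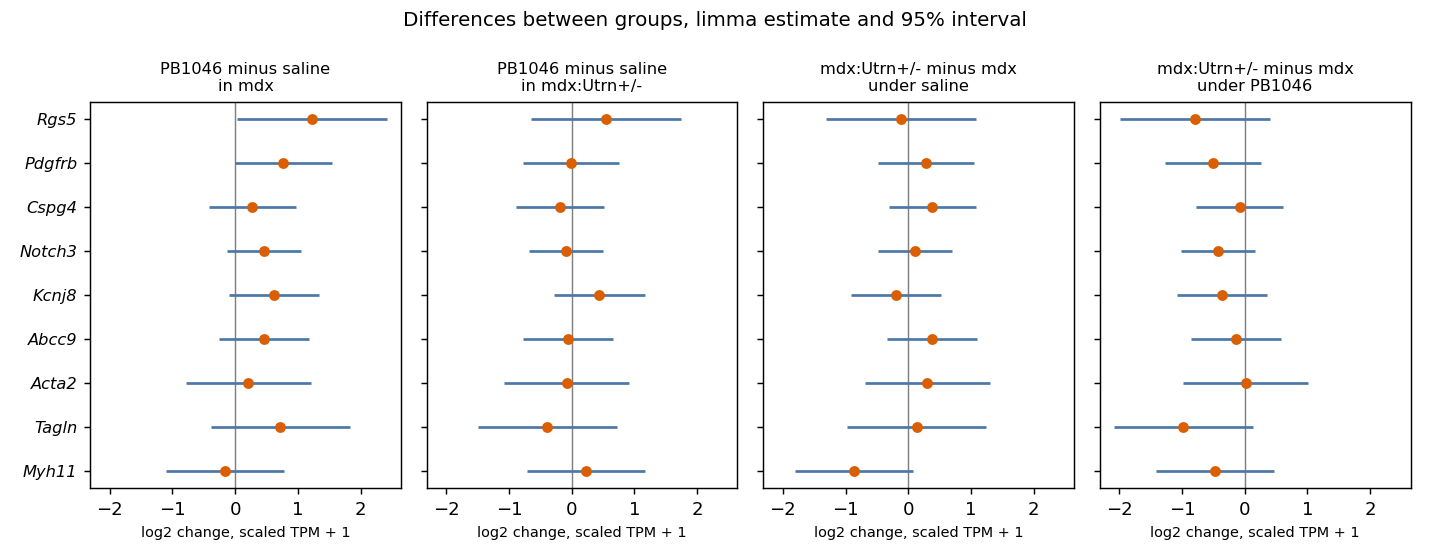
Differences of the 9 marker genes between groups, on the scale log2(scaled TPM + 1). Points are limma estimates and lines their 95% intervals, 1 panel per comparison, with 0 as the vertical line. The intervals of Rgs5 (0.03 to 2.42) and Pdgfrb (0.0033 to 1.54) lie above 0 with PB1046 in mdx, and all others in the 4 panels span 0.

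In mdx:Utrn+/- the PB1046 differences of the 9 lay on both sides of 0. They were positive for Rgs5, Kcnj8 and Myh11 and negative for the other 6, with a median of -0.06 against -0.01 for all genes (48.3% above 0). The median ran from -0.28 without mdx:Utrn+/- saline replicate 3 to 0.21 without mdx:Utrn+/- saline replicate 2, where 7 of the 9 were positive. Called genes were again 0% of those tested by limma, with 251 (1.96%) under an unadjusted 0.05, and 0 called by limma-voom with 213 under that value. None of the 9 was among the genes under an unadjusted 0.05 in limma. No marker of the 9 had groups that did not overlap, against 6.2% of genes in deposited TPM and 5.64% in scaled TPM. Without scaling factors the median of all genes was 0.15, 71.8% were above 0 and 7 of the 9 were positive. All 14 endothelial markers were positive in this comparison (median 0.56), with sums of 1265 to 1648 TPM with saline and 1541 to 5036 TPM with PB1046. All 15 macrophage markers were negative (median -0.48), with sums of 178 to 992 and 187 to 452 TPM.

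The response of the markers to PB1046 was lower in mdx:Utrn+/- than in mdx for 8 of the 9, Myh11 being the exception, with a median difference of responses of -0.52 against -0.01 for all genes (48.2% above 0). With 1 library left out this median ran from -0.73 (without mdx:Utrn+/- saline replicate 3) to -0.26 (without mdx:Utrn+/- PB1046 replicate 2). No such difference passed the test: limma and limma-voom called 0 genes (0%), with 288 (2.25%) and 280 under an unadjusted 0.05 and none of the 9 among the limma genes. Averaged over genotypes, the PB1046 differences were above 0 for all 9, from 0.04 (Myh11) to 0.89 (Rgs5), with a median of 0.18 against -0.01 (48.5% of genes above 0), and of 0.090 without mdx:Utrn+/- saline replicate 3. Without scaling factors they were also positive for 9 (all genes 78.8% above 0), and with log2 Rn45s in the fit for 6. Rgs5 (0.89, interval 0.04 to 1.73) and Kcnj8 (0.53, 0.02 to 1.04) had a limma adjusted p of 1.00. Limma called 0 genes (0%) and had 318 (2.48%) under an unadjusted 0.05. Limma-voom called 0 with 340.

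Between genotypes the markers had no common direction with saline. Differences, mdx:Utrn+/- minus mdx, were positive for 6 of 9 with a median of 0.13 against 0.03 for all genes (53.4% above 0), and the median was -0.18 without mdx saline replicate 1. With PB1046 8 of 9 were negative (median -0.43, all genes 0.01 with 52.2% above 0), Acta2 being at 0.01. The largest were Tagln at -0.98 (-2.09 to 0.13, limma adjusted p = 1.00) and Rgs5 at -0.79 (-1.99 to 0.40). Tagln was -0.42 without mdx:Utrn+/- PB1046 replicate 3, and Rgs5 ran from -1.19 without mdx PB1046 replicate 1 to -0.53 without mdx PB1046 replicate 2. The median of the 9 was -0.19 without mdx PB1046 replicate 3. Pdgfrb and Tagln of mdx:Utrn+/- with PB1046 lay wholly below mdx with PB1046 in deposited TPM, as did 6.33% of the genes tested, and overlapped after scaling (3.16% of genes separated). All 14 fibroblast markers were negative in this comparison (median -0.69), with sums of 709.8 to 1897 TPM in mdx and 418 to 542 TPM in mdx:Utrn+/-. Averaged over treatments 3 of 9 were positive (median -0.16, all genes 0.0051 with 51% above 0). Without scaling factors the medians of all genes were -0.20, -0.20 and -0.21 for saline, PB1046 and their average, with 25.8%, 19.9% and 17.3% above 0, and 4, 0 and 0 of the 9 were positive. Limma called 0% of genes in each genotype comparison, with 515 (4.02%) under an unadjusted 0.05 with saline, 212 (1.66%) with PB1046 and 468 (3.66%) on average. Limma-voom called 0 in each, with 499, 224 and 429. These comparisons share their groups with the PB1046 comparisons and are not independent of them.

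Further mural markers were taken from lists of genes known for their cell type. The lists were chosen with earlier results of these data known, so they are not an independent check of the 9. Of 17 further pericyte markers 16 had a positive PB1046 difference in mdx (median 0.30, all genes -0.0030) and 12 of 17 in mdx:Utrn+/- (median 0.15), with none past the adjusted threshold. The smallest p belonged to Steap4, a metalloreductase, which was 5.02 ± 1.25 TPM in mdx with saline and 12.6 ± 3.56 TPM with PB1046 (SD, n = 3, ranges 4.08 to 6.45 and 8.61 to 15.3 TPM). Its difference was 1.01 (0.31 to 1.70, limma adjusted p = 0.999). Vtn, vitronectin, was 8.32 ± 0.58 and 22.5 ± 12.4 TPM in these groups, ranging from 7.80 to 8.95 and from 9.58 to 34.3 TPM, with a difference of 1.01 (0.14 to 1.88, limma adjusted p = 0.999). These ranges of Steap4 and Vtn did not overlap between the groups, a separation upwards seen for 6.56% of all genes in deposited TPM. With PB1046 all 17 had a negative genotype difference (median -0.27).

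Further smooth muscle markers, 14 in number, had a positive PB1046 difference in mdx for 9 (median 0.02) and a negative genotype difference, averaged over treatments, for 12 (median -0.27, all genes 0.0051). Without scaling factors the median of all genes itself was -0.21 for the average genotype difference and 0.14 for PB1046 in mdx. Ppp1r14a, which encodes an inhibitor of myosin phosphatase, was 4.11 ± 1.60 TPM in mdx with saline and 1.42 ± 0.62 TPM in mdx:Utrn+/- with saline (difference -0.89, -1.71 to -0.07, limma adjusted p = 0.854). Olfr558, an olfactory receptor gene used as a smooth muscle marker, was 3.40 ± 1.10 and 1.68 ± 0.06 TPM in these groups (difference -0.51, -0.93 to -0.08, limma adjusted p = 0.854). Of the 3 contractile markers, Myh11 was lower in this comparison (-0.86), and Acta2 (0.31) and Tagln (0.13) were higher.

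Ligands, effectors and channel partners of the mural pathways made up a list of 30 names, of which 28 were in the table. With PB1046 in mdx 16 of 28 were positive and 12 negative (median 0.12), and averaged over treatments 21 were lower in mdx:Utrn+/- (median -0.13). None passed the adjusted threshold. Hey2, a transcriptional repressor induced by Notch, was 5.99 ± 1.39 TPM in mdx with saline, 3.99 ± 0.56 in mdx with PB1046, 2.66 ± 0.51 in mdx:Utrn+/- with saline and 2.50 ± 0.76 TPM in mdx:Utrn+/- with PB1046 (SD, n = 3). Its average genotype difference was -0.54 (-0.91 to -0.17, limma adjusted p = 0.858), and its PB1046 difference in mdx was -0.59 (-1.12 to -0.07). Other Notch effectors of this list, Hes1, Hey1, Heyl and Nrarp, had higher mean deposited TPM with PB1046 in mdx. Their means were 20.4, 7.15, 3.23 and 11.4 TPM with saline and 28.8, 13.2, 4.78 and 17.9 TPM with PB1046, with overlapping ranges. Hey1, for example, ranged from 5.42 to 8.98 and from 4.45 to 25.3 TPM. These means are unscaled and cannot be set against the scaled difference of Hey2. Without scaling factors 72.1% of all genes were above 0 in this comparison (median 0.14). Pdgfra, the other receptor for platelet-derived growth factor and a fibroblast marker, was 4.04 ± 1.78 TPM in mdx with saline and 10.9 ± 1.45 TPM with PB1046 (difference 1.14, 0.0020 to 2.28, limma adjusted p = 0.999).

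The 9 markers did not move as 1 block across libraries. Over the 36 pairs, 9 had a Benjamini-Hochberg adjusted permutation p under 0.05 for Pearson's r, and 4 for both r and Spearman's rho. Levels were on the scale log2(scaled TPM + 1) over 12 libraries, which share cell makeup and depth within each library. The 4 pairs were Rgs5 and Notch3 (r 0.84, rho 0.78, permutation p = 0.00071 and 0.00459, adjusted 0.0128 and 0.0419), Pdgfrb and Tagln (r 0.77, rho 0.87, permutation p = 0.00344 and 0.00047, adjusted 0.0206 and 0.0169), Tagln and Notch3 (r 0.78, rho 0.78, permutation p = 0.00277 and 0.00466, adjusted 0.0206 and 0.0419), and Acta2 and Abcc9 (r 0.72, rho 0.80, permutation p = 0.00793 and 0.00291, adjusted 0.0374 and 0.0419). Dropping the 2 libraries in which the first gene was most extreme gave r of 0.69, 0.78, 0.72 and 0.68 for these 4. The column headers number the libraries, and 3 of them (replicate 1 of every group but mdx with saline) have adjacent lowest numbers, whose meaning is not stated. Within the 9 libraries of higher number r was 0.87, 0.78, 0.85 and 0.82, and the other 3 were too few for a value. With group means removed it was 0.84, 0.75, 0.71 and 0.73.

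Rgs5 and Pdgfrb, the 2 genes with the smallest p for PB1046 in mdx, had r = 0.79 and rho = 0.52 (permutation p = 0.00327 and 0.0876, adjusted 0.0206 and 0.210). Their r was 0.34 without the 2 farthest libraries, so that its size depended on those. It was 0.88 within the higher library numbers and 0.73 with group means removed. No relation of Acta2 with the other contractile genes was detected: r was 0.02 for Acta2 and Tagln (rho 0.14, permutation p = 0.939 and 0.671, adjusted 0.966 and 0.830) and -0.20 for Acta2 and Myh11 (rho -0.38, permutation p = 0.543 and 0.225, adjusted 0.698 and 0.386). Without the 2 farthest libraries these r were -0.39 and -0.16. The level of Acta2 was 5.46 to 37.8 times that of Myh11 and 1.10 to 9.69 times that of Tagln. No relation of Abcc9 with Rgs5 or Notch3 passed the threshold over all libraries, where r was -0.35 and -0.41 (rho -0.56 and -0.48, permutation p = 0.259 and 0.189 for r and 0.0621 and 0.115 for rho, adjusted 0.425 and 0.324 for r and 0.172 and 0.259 for rho), and -0.27 and -0.41 without the 2 farthest. With group means removed, which was not tested, r was -0.73 and -0.76.

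**Figure D3:**
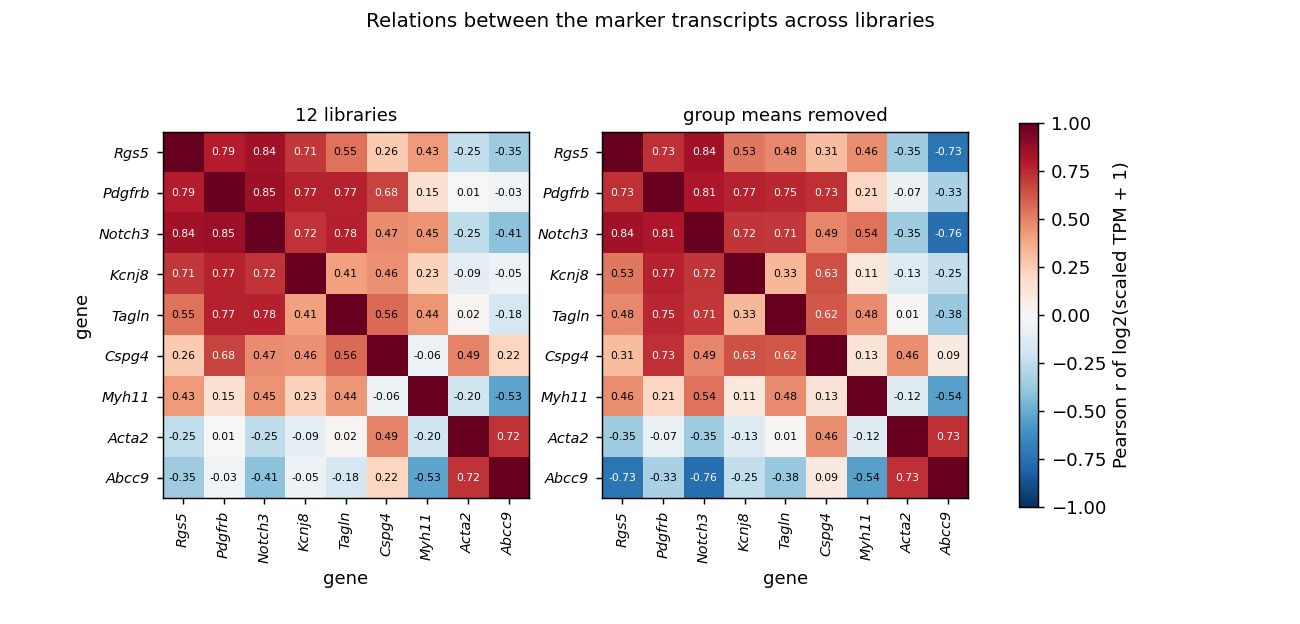
Pearson's r between the 9 marker genes over the 12 libraries (left) and with the mean of each group removed (right), from log2(scaled TPM + 1), with colour from -1 to 1. In the gene order chosen, Rgs5, Pdgfrb, Notch3 and Kcnj8 form the red block at the upper left (r 0.71 to 0.85 over the 12 libraries), and Acta2 with Abcc9 (0.72) stands apart at the lower right. Tagln, outside the block, had r of 0.77 with Pdgfrb and 0.78 with Notch3. Without the 2 farthest libraries r of Kcnj8 was 0.38 with Rgs5, 0.53 with Pdgfrb and 0.44 with Notch3. None of these Kcnj8 pairs passed for rho. Within the block Rgs5 with Pdgfrb and Pdgfrb with Notch3 did not pass for rho either (adjusted permutation p = 0.210 and 0.0631).

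Relations with the scores of other cell types, with Rn45s and with the actins numbered 47. A score is the mean of a list's log2 levels after each gene was centred on its mean. Myh11 followed the endothelial score (r 0.73, rho 0.74, permutation p = 0.00717 and 0.00809, adjusted 0.0421 and 0.0475), with r = 0.61 without the 2 farthest libraries and 0.63 within the higher library numbers. Pdgfrb did not (r 0.03, rho -0.22, permutation p = 0.933 and 0.486, adjusted 0.953 and 0.653, and -0.17 without the 2 farthest). Pdgfrb followed the fibroblast score instead (r 0.78, rho 0.85, permutation p = 0.00223 and 0.00094, adjusted 0.0162 and 0.0147), as did Tagln (r 0.81, rho 0.87, permutation p = 0.00152 and 0.00064, adjusted 0.0162 and 0.0147) and Notch3 (r 0.80, rho 0.80, permutation p = 0.00219 and 0.00293, adjusted 0.0162 and 0.0344). Without the 2 farthest libraries these r were 0.77, 0.81 and 0.73, and within the higher library numbers 0.75, 0.82 and 0.81.

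The cardiomyocyte score ran against Rgs5 (r -0.79, rho -0.85, permutation p = 0.00242 and 0.00071, adjusted 0.0162 and 0.0147), Notch3 (r -0.78, rho -0.75, permutation p = 0.00229 and 0.00695, adjusted 0.0162 and 0.0475) and Myh11 (r -0.70, rho -0.74, permutation p = 0.0109 and 0.00802, adjusted 0.0471 and 0.0475). Without the 2 farthest libraries r was -0.89, -0.70 and -0.71. Abcc9 had values of the other sign that did not pass the threshold, r = 0.48 and rho = 0.70 (permutation p = 0.111 and 0.0135, adjusted 0.220 and 0.0607). Its r was 0.43 without the 2 farthest and 0.41 within the higher library numbers. With group means removed, which was not tested, it was 0.73. Log2 Rn45s followed Pdgfrb (r 0.83, rho 0.77, permutation p = 0.00149 and 0.00486, adjusted 0.0162 and 0.0457) and Tagln (r 0.83, rho 0.70, permutation p = 0.00070 and 0.0142, adjusted 0.0162 and 0.0607), with 0.65 and 0.70 without the 2 farthest libraries. For Rgs5 r was 0.70 and rho 0.61 (permutation p = 0.0130 and 0.0399, adjusted 0.0471 and 0.104), and 0.31 without the 2 farthest. For Notch3 r was 0.70 and rho 0.57 (permutation p = 0.0103 and 0.0599, adjusted 0.0471 and 0.148), and 0.70 without the 2 farthest. The part of Rn45s in the differences of these genes was not tested beyond the fits that hold it as a term.

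**Figure D4:**
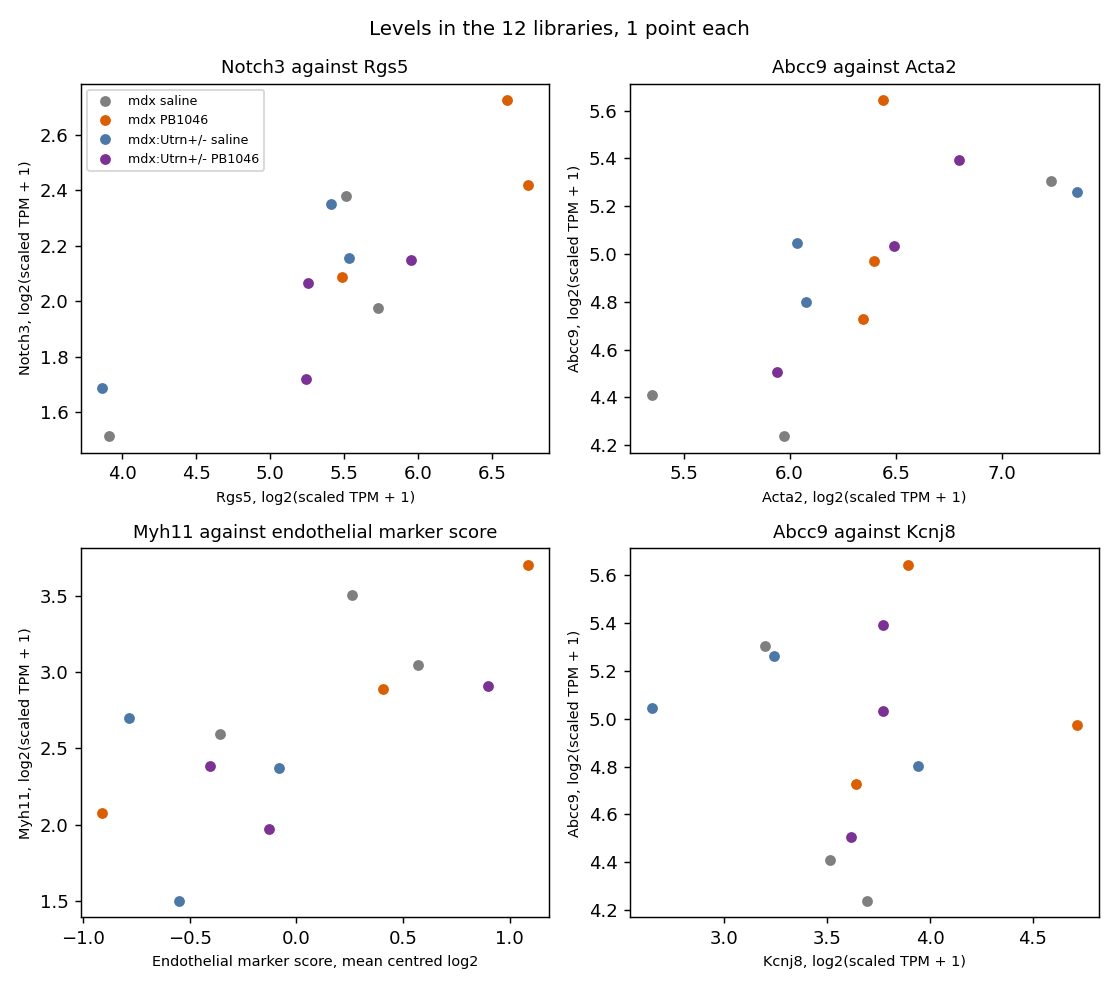
Levels in the 12 libraries, 1 point per library and coloured by group, on the scale log2(scaled TPM + 1), with the mean centred score of 14 endothelial markers on the horizontal axis at the lower left. Points rise together for Notch3 against Rgs5 (r 0.84), Abcc9 against Acta2 (r 0.72) and Myh11 against the endothelial score (r 0.73), and none is visible for Abcc9 against Kcnj8 (r -0.05).

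Libraries of the same group differed more for most of these genes than for the typical gene. The SD within groups was 0.79 for Rgs5, above that of 96.0% of the genes tested, and 0.73 for Tagln (94.5%) and 0.65 for Acta2 (91.4%). It was lowest for Notch3 at 0.34 (54.1%), and the median over genes was 0.32. Kcnj8 had the largest share of variance between groups, 40.4%, followed by Rgs5 with 39.9%. In deposited TPM, library mdx PB1046 replicate 3 held the highest value of 6 of the 9 markers (Pdgfrb, Tagln, Myh11, Cspg4, Kcnj8 and Notch3). On the scale log2(scaled TPM + 1) its Cspg4 level, 3.10, was below that of mdx:Utrn+/- saline replicate 2, 3.23. Library mdx:Utrn+/- saline replicate 3 held the lowest of 4 (Rgs5, Pdgfrb, Cspg4 and Kcnj8).

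The authors' deposited table of comparisons gives values for the same genes, with the false discovery rate over its genes. Its fold changes ran opposite to the group named first, and are given here with the sign turned. For PB1046 in mdx their r was -0.97 with differences of unscaled log2 TPM, over the 8852 more abundant genes. For PB1046 in mdx the authors' deposited table has Rgs5 at 1.15 (p-value 0.0157, false discovery rate 1), Pdgfrb at 0.80 (0.0272 and 1) and Kcnj8 at 0.74 (0.0463 and 1). For the genotype difference with saline the authors' deposited table has Myh11 at -1.003 (p-value 0.0306, false discovery rate 0.935).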

How the data were processed

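RNA of isolated cardiomyocytes (12 libraries, 4 groups named in the titles) was analysed. The deposited expression values are TPM on mm10, although the authors called the table raw counts: each library sums to 1000000. Per the submitters' processing notes the authors used edgeR. Aligner, counter and gene lengths are not named. The authors' deposited comparisons hold log2 fold changes, p-values, false discovery rates and a likelihood ratio score per the file headers. The score was not used. Whole reads were recovered from TPM steps (tolerance 0.1 reads) for 18529 of 18530 genes, all but Rn45s, for depth and limma-voom.

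A trimmed mean of log ratios (30% and, by level, 5% trimmed) gave scaling factors of 0.828 to 1.31. Values of log2(scaled TPM + 1), which understate changes of low genes, were fitted with limma 3.58.1 (trend, robust, R 4.3.3) for 12798 genes that reached 1 TPM in 3 or more libraries. The fit had 4 group means and 8 residual degrees of freedom, with Benjamini-Hochberg adjustment and a threshold of 0.05, and was tested on simulated data. Correlations used 100000 two-sided permutations. All 9 markers are named. Each other list may name the 4 genes with the smallest p in a comparison and its most abundant gene. Hes1, Hey1, Heyl and Nrarp were named beside Hey2 after the values were seen. Markers and lists were chosen with earlier results of these data known. Promoters came from RefSeq (entries for 6 of 9 markers). Alternatives were no scaling, a pseudocount of 0.1, no filter, limma-voom, a replicate block, the compared groups alone, a term for Rn45s or library number, and leaving out each library. The CArG search with 1 G or C and the actin correlations were added after seeing the data.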

Additional observations from a re-analysis of the deposited data

How the results depend on the processing

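None of the 63 differences of the 9 markers passed the adjusted threshold in the fits that were run, 8 alternatives and 12 that left out 1 library (smallest adjusted p 0.268). The alternative with only the compared groups was run for 36 of the 63, not for averages or the difference of responses. Of 1233 alternative values 1147 kept their direction and 86 reversed, 62 of them on leaving out a library, and the largest difference that reversed was 0.68 in size. The cause was not tested. With the replicate number as a block 0 genes passed. All groups hold the same replicate numbers, so this block could change p-values but no estimate. That Rgs5 with PB1046 in mdx was again 1.22 was therefore fixed by the design. The values of this block are among the 1147 that kept their direction. Same-numbered libraries had correlations of deviations from -0.20 to 0.49, so the numbers were not taken to pair them. Depth, 6248202 to 25366480 recovered reads, limits the low genes most.

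Without scaling factors the PB1046 difference in mdx:Utrn+/- was 0.16 for Pdgfrb, 0.10 for Acta2, 0.12 for Abcc9 and 0.057 for Notch3. In the same setting the genotype difference was -0.12 for Tagln and -0.093 for Notch3 with saline, -0.23 for Acta2 with PB1046, and on average -0.092 for Acta2, -0.070 for Cspg4 and -0.12 for Abcc9. Limma-voom gave 0.025 for Pdgfrb with PB1046 in mdx:Utrn+/- and -0.016 for Acta2 between genotypes with PB1046. The compared groups alone gave 0.012 for Pdgfrb with PB1046 in mdx:Utrn+/-. With Rn45s as a term that value was 0.11, genotype differences were -0.21 for Tagln and -0.012 for Notch3 with saline and -0.084 for Acta2 and 0.090 for Cspg4 with PB1046, average PB1046 differences were -0.079 for Tagln, -0.036 for Myh11 and -0.035 for Cspg4, and the difference of responses of Rgs5 was 0.13. A term for the 3 lowest library numbers gave 0.097 for Myh11 with PB1046 in mdx and -0.00426 for Cspg4 with PB1046 on average.

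Leaving out each library in turn reversed 27 of the 63 differences in at least 1 fit. For PB1046 in mdx these were Acta2 from -0.21 to 0.67 and Myh11 from -0.61 to 0.25. For PB1046 in mdx:Utrn+/- these were Pdgfrb from -0.46 to 0.21, Acta2 from -0.31 to 0.35, Tagln from -0.83 to 0.17, Myh11 from -0.12 to 0.49, Cspg4 from -0.55 to 0.020, Abcc9 from -0.27 to 0.21 and Notch3 from -0.28 to 0.058. For genotype with saline these were Rgs5 from -0.77 to 0.42, Pdgfrb from -0.044 to 0.73, Acta2 from -0.13 to 0.74, Tagln from -0.24 to 0.55, Kcnj8 from -0.52 to 0.12 and Notch3 from -0.18 to 0.32. For genotype with PB1046 these were Acta2 from -0.18 to 0.26, Cspg4 from -0.33 to 0.13 and Abcc9 from -0.34 to 0.13. For genotype on average these were Pdgfrb from -0.27 to 0.11 and Acta2 from -0.057 to 0.39. For PB1046 on average these were Acta2 from -0.14 to 0.32, Tagln from -0.052 to 0.45, Myh11 from -0.18 to 0.24 and Cspg4 from -0.13 to 0.15. For the difference of responses these were Acta2 from -0.71 to 0.14, Myh11 from -0.017 to 0.87 and Kcnj8 from -0.49 to 0.23. The median of the 9 for genotype with saline ran from -0.18 (without mdx saline replicate 1) to 0.42 (without mdx:Utrn+/- saline replicate 3). The count of all genes past the threshold for the difference of responses ran from 0 to 1, the 1 being without mdx:Utrn+/- saline replicate 3.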

Other observations

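The genes most like the mean centred level of the 9 markers over the 12 libraries, of 12789 other genes tested, were Pla1a (r 0.97), Ebf2 (0.96), Plat (0.95), Epb4.1l1 (0.93) and Gpc6 (0.93). Pla1a encodes a phospholipase specific for phosphatidylserine, Ebf2 a transcription factor and Plat tissue plasminogen activator. Pla1a ranged from 2.14 to 18.5 TPM. With group means removed the leading genes were Pla1a (0.96), Aspa (0.95), Ebf2 (0.95), Ap2b1 (0.95) and Errfi1 (0.94). Aspa was also low, at 0.250 to 2.52 TPM. These likenesses are descriptions over libraries that share cell makeup and depth, and 130 genes had r above 0.8 over the 12 libraries.

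Markers of other cells were also compared for PB1046 in mdx. All 5 erythroid markers were positive (median 1.91), with sums of 19.1 to 99.2 TPM with saline and 73.7 to 1098 TPM with PB1046. Their score was 0.34, -0.94 and 2.52 in replicates 1, 2 and 3 of mdx with PB1046. Hba-a1 and Hba-a2 had nearly the same values (43.1 ± 60.3 and 42.8 ± 59.9 TPM, SD, n = 12) and do not count separately. For mesothelial markers 3 of 5 were positive (median 0.10), and for tested skeletal muscle markers 2 of 3 (median 0.20). The 1 Schwann cell marker that passed the filter was at -0.02. Of the skeletal muscle list Myh4 and Myh1 were at 0 in some library.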
